A study of Pinus pinaster with 4 samples.

Results

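The levels of 3 contigs named for light response genes were compared between needles of 2 provenances of maritime pine (Pinus pinaster). The contigs were taken by their identifiers from the 17571 in the deposited RNA-Seq table. They are sp_v3.0_unigene6865, which the study names HY5, sp_v3.0_unigene97042, which it names ELIP, and sp_v3.0_unigene37920, which it names PAP2. All 3 had a row in the table, and no filter on low values removed any of them. RNA came from adult needles of 4 biological replicates, with 1 library for each. A replicate is called a plant below, although the labels do not say whether it was 1 plant or a pool. The Leiria group (libraries L6 and L7) descends from a coastal Portuguese provenance, and the Tamrabta group (T3 and T6) from a mountain provenance in the Moroccan Atlas. Both groups were rooted cuttings, potted at the age of 17 months, grown under 1 feeding and watering scheme in a greenhouse in northern Spain, and pruned of their branches before sampling. Needles were harvested on 1 day at 1 time, so each value is a single point of the daily cycle, and the sources used here do not give the light the plants had received. The plants belong to a clonal collection, and it is not stated whether the 2 plants of a provenance share a clone. If they do, the p-values measure only the spread between plants of that clone.

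In Arabidopsis, HY5 (ELONGATED HYPOCOTYL5) is a bZIP transcription factor that promotes seedling development in light and restrains elongation of the hypocotyl. Photoreceptors (phytochromes, cryptochromes and the UV-B receptor UVR8) restrain the COP1 ubiquitin ligase, which otherwise sends HY5 to degradation, and HY5 then activates light-induced genes such as those for chalcone synthase and the early light-induced proteins. ELIP stands for such an early light-induced protein, a thylakoid relative of the chlorophyll a/b-binding antenna proteins that accumulates under strong light or cold and protects the chloroplast from excess light. PAP2 is used here for PHYTOCHROME-ASSOCIATED PROTEIN 2, an Aux/IAA protein of Arabidopsis, also called IAA27, that binds phytochrome and represses auxin responses. It is not the MYB regulator of anthocyanin synthesis that shares the abbreviation.

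The identities rest on annotation by similarity. The array annotation of the study links the HY5 contig to the Arabidopsis gene AT5G11260, which is HY5, and the PAP2 contig to AT4G29080, which is IAA27. Its text description calls the PAP2 contig an ARF domain transcription factor, that is, an auxin response factor, which is the partner family of the Aux/IAA proteins. For the ELIP contig no annotation was held beyond the name in the study. Sequences of the contigs and their positions in the genome were not used here, so none is printed.

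Levels are read-pair counts normalised to a library total of 1000000 (CPM) and scaled by the authors with the TMM factors of edgeR, which correct for differences in library composition. They are not divided by contig length, so levels are compared between libraries and not between genes. Whole read-pair counts could be recovered from the values. They summed to 40019608 to 58835449 for a library, and each of the 3 genes had at least 1336 counts in every library, so counting error was small beside the differences between the provenances. The logFC is the mean log2(CPM + 0.5) of Leiria less that of Tamrabta. It was tested with limma over the whole table, and a gene was called at a Benjamini-Hochberg adjusted p under 0.05 with an absolute logFC over 1. For a single value, 2 plants against 2 allow no two-sided p below 0.333 in an exact permutation test. In whole needles, fewer cells of a type and less RNA for each cell cannot be told apart.

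HY5 was lower in Leiria. Of the Leiria plants, L6 had 36.7 CPM and L7 had 39.5 CPM, whereas of the Tamrabta plants T3 had 94.2 CPM and T6 had 89.6 CPM. Both Leiria plants thus stood close together and well below both Tamrabta plants, which were also close together. The means were 38.1 ± 1.94 CPM in Leiria and 91.9 ± 3.22 CPM in Tamrabta (SD, n = 2 each), a ratio of 0.415. The coefficient of variation was 5.1% in Leiria and 3.5% in Tamrabta. Counting error gave exact Poisson 95% intervals of 34.8 to 38.8 CPM for L6 and 37.9 to 41.1 CPM for L7, against 91.5 to 96.9 CPM for T3 and 86.9 to 92.4 CPM for T6, which overlap within each provenance and not between them. Such intervals cover counting error only. The higher Leiria plant and the lower Tamrabta plant were still separated by a factor of 2.27. The logFC was -1.26 (standard error 0.15, 95% interval -1.65 to -0.87), with an unadjusted p of 0.000656 and an adjusted p of 0.0943 from limma. It was not called in this fit. Of all contigs, 115 had a smaller unadjusted p.

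ELIP was also lower in Leiria, with far more spread between plants. L6 had 291 CPM and L7 had 168 CPM in the Leiria group, while T3 reached 624 CPM and T6 reached 425 CPM in the Tamrabta group. The order of the plants was L7, L6, T6 and T3, and the provenances did not overlap. The means were 229 ± 87.4 CPM in Leiria and 525 ± 141 CPM in Tamrabta (SD, n = 2 each), a ratio of 0.437. The nearest plants of the 2 provenances, L6 and T6, differed by a factor of 1.46, and the farthest, L7 and T3, by 3.73. The logFC of -1.22 (standard error 0.36, 95% interval -2.18 to -0.25) was close to that of HY5, but its unadjusted p was 0.0239 and its adjusted p 0.263 from limma. Without L7 the logFC was -0.82, and without T3 it was -0.94, both inside the threshold of 1.

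PAP2 went the other way, with higher expression in Leiria. L6 reached 621 CPM and L7 reached 710 CPM in Leiria, while T3 had 392 CPM and T6 had 272 CPM in Tamrabta. The provenances did not overlap, and L6 was 1.58 times above T3, the nearest Tamrabta plant. The means were 666 ± 62.9 CPM in Leiria and 332 ± 84.7 CPM in Tamrabta (SD, n = 2 each), a ratio of 2.00. The logFC was 1.02 (standard error 0.24, 95% interval 0.37 to 1.67), with an unadjusted p of 0.0112 and an adjusted p of 0.205 from limma. This logFC lies at the threshold of 1, so small differences between fits decide on which side it falls. It was 0.76 without T6 and 1.28 without T3.

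**Figure D1:**
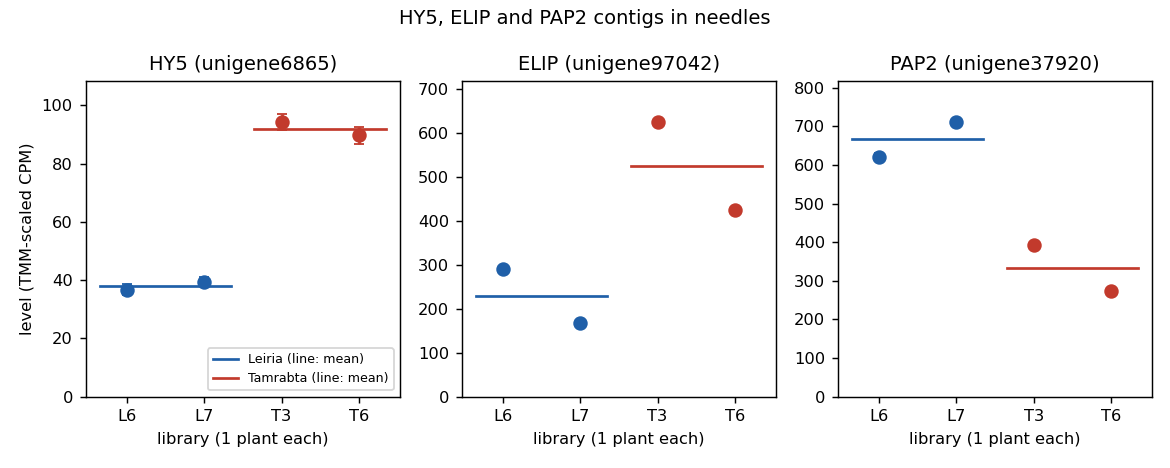
Levels of HY5, ELIP and PAP2 in TMM-scaled CPM (y axis, from 0) in each of the 4 libraries (x axis, 1 plant each). Points are libraries with exact Poisson 95% intervals of the count, mostly smaller than the point, and lines are the means of Leiria (blue) and Tamrabta (red). HY5 and ELIP are lower in both Leiria plants and PAP2 is higher, and the spread within a provenance is smallest for HY5.

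All 3 genes thus separated the provenances, 2 with lower and 1 with higher values in Leiria. Such a separation is common in this table, where 23.9% of all contigs had both Leiria values below both Tamrabta values and 25.0% had both above, so the separation of a single gene is no result by itself. Limma called 0 of the 3 genes and 0.154% of all contigs. At an unadjusted p under 0.05 it had all 3, against 14.7% of all contigs. These genes were named by the study from tests on the same plants, and their low p-values are therefore not independent evidence. The absolute logFC, from the same contrast, was larger than that of most contigs. Only 7.60% of all contigs had a larger absolute logFC than HY5, 7.98% a larger one than ELIP and 10.8% a larger one than PAP2, and the median absolute logFC of all contigs was 0.265.

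The count-based tests differed in their calls. On the recovered counts the exact test of edgeR, the test used by the study, called all 3 genes (5.99% of all contigs), with an adjusted p of 0.00428 for HY5, 0.0253 for ELIP and 0.0405 for PAP2. DESeq2 called HY5 and ELIP (6.19% of all contigs). It gave PAP2 an adjusted p of 0.0111 with a logFC of 0.99. The quasi-likelihood test of edgeR called 0 of the 3 (0.0114% of all contigs), with adjusted p-values of 0.117 for HY5, 0.294 for ELIP and 0.242 for PAP2. The logFC itself hardly depended on the tool, lying between -1.28 and -1.27 for HY5, between -1.20 and -1.19 for ELIP and between 0.99 and 1.00 for PAP2 in the count-based tests. HY5 had the lowest adjusted p of the 3 genes in limma, the exact test, the quasi-likelihood test and DESeq2.

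**Figure D2:**
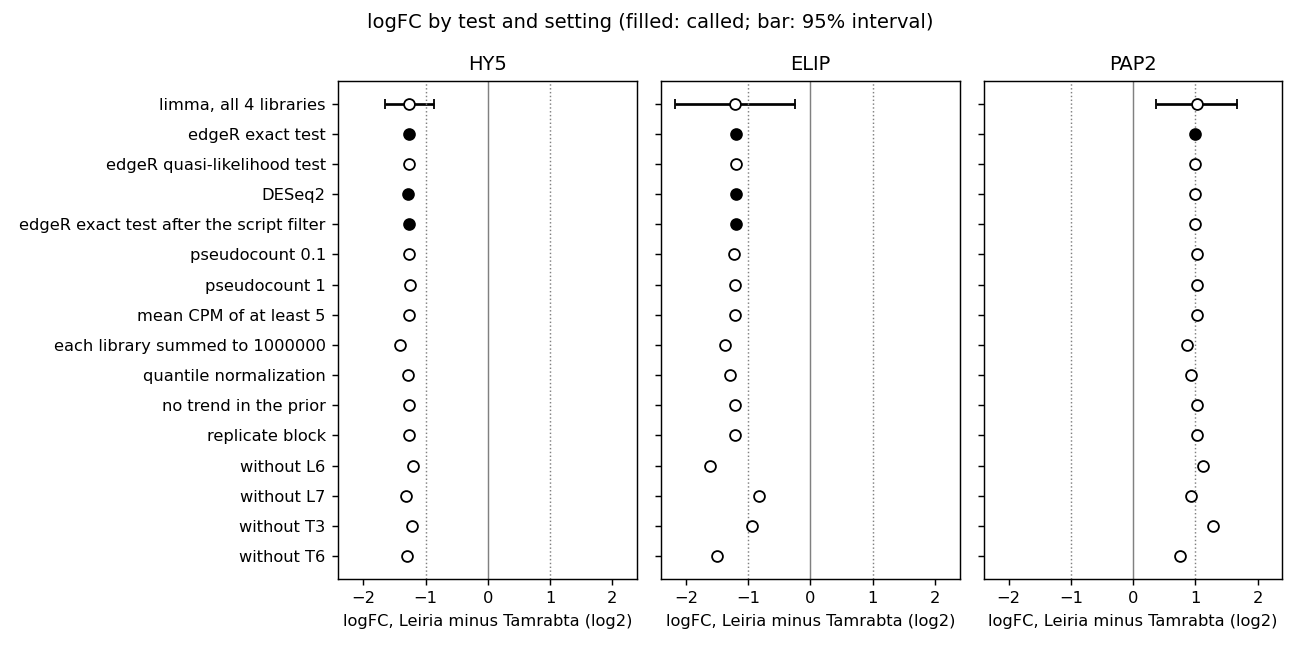
logFC of HY5, ELIP and PAP2, Leiria minus Tamrabta (x axis, log2), for each test and setting (rows). Filled points passed the adjusted p and logFC thresholds, open points did not, the bar on the top row is the 95% interval from limma, and dotted lines mark a logFC of 1 in either direction. Every point keeps its sign, and the points of ELIP and PAP2 move most when a single library is left out, from -1.62 to -0.82 for ELIP and from 0.76 to 1.28 for PAP2.

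The plants of a provenance were unequally alike for the 3 genes. For HY5 the log2 gap between L6 and L7 was 0.10 and that between T3 and T6 was 0.07, and 72.9% and 86.8% of all contigs had a larger gap in the same pair. For ELIP the gaps were 0.80 in Leiria and 0.55 in Tamrabta. Only 8.74% of all contigs had a larger gap between L6 and L7, and 26.5% between T3 and T6. For PAP2 the gaps were 0.19 and 0.53, with 52.6% of contigs above it in Leiria and 28.5% in Tamrabta. The medians over all contigs were 0.207 in Leiria and 0.308 in Tamrabta. Expression of ELIP therefore differed between plants of the same provenance more than that of most contigs, with L6 and T3 as the higher plants. HY5 differed less than most. These shares are over contigs of all levels, not matched to the 3 genes. HY5 was also named from tests on the same plants, which favour small gaps.

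A ratio of 2 genes in the same library does not depend on how the library was scaled, and contig length cancels when it is compared between libraries. The HY5 level divided by the PAP2 level was 0.0591 and 0.0556 in the Leiria plants (L6, L7), against 0.240 and 0.329 in the Tamrabta plants (T3, T6), a difference of -2.29 on the log2 scale. The ELIP level divided by the PAP2 level was 0.469 and 0.236 in the Leiria plants, against 1.59 and 1.56 in the Tamrabta plants, a log2 difference of -2.25. Neither ratio overlapped between the provenances. For both, the exact two-sided permutation test gave p = 0.333, the smallest p possible with 2 plants against 2. These outcomes were fixed, because HY5 and ELIP were lower and PAP2 was higher in both Leiria plants, and they add no evidence. The log2 differences restate the logFC values of the 2 genes. The ELIP level divided by the HY5 level was 7.93 and 4.25 in the Leiria plants, against 6.63 and 4.74 in the Tamrabta plants. This ratio overlapped between the provenances (log2 difference 0.05, exact permutation p = 1). The log2 difference again restates the logFC values of the 2 genes, which were alike. With 2 plants against 2, an overlap cannot show that ELIP and HY5 changed in proportion. Within each provenance the plant with more ELIP also had the higher ratio, since HY5 scarcely differed between the plants of a pair.

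**Figure D3:**
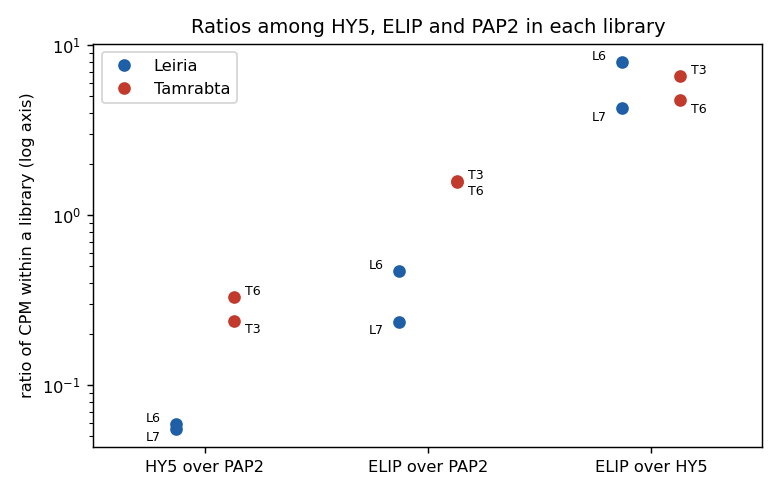
Ratios of CPM between HY5, ELIP and PAP2 within each library (y axis, log scale), with Leiria in blue and Tamrabta in red. The ratios to PAP2 are lower in both Leiria plants, 0.0556 and 0.0591 for HY5 and 0.236 and 0.469 for ELIP, while the ratio of ELIP to HY5 overlaps.

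To place the 3 genes among others of their pathways, 26 contigs were listed from the study's text and array annotation, of which the RNA-Seq table held 15. The annotation rows read are those with the lowest p on arrays that included the same plants. The genes from the study's text, which include the clock and flowering genes, were named there as differing between the provenances. All listed genes were thus preselected for a difference and do not describe whole families. Of the 15, 10 had higher and 5 had lower values in Leiria, with a median logFC of 0.33 beside 0.01 over all contigs. Limma called 0 of them (0.154% of all contigs), and 9 had an unadjusted p under 0.05 (14.7% of all contigs). The exact test called 3, all lower in Leiria (5.99% of all contigs in either direction), DESeq2 called 4 (6.19%), and the quasi-likelihood test 0 (0.0114%).

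In light signalling, a second contig annotated as HY5 (sp_v3.0_unigene6404) and a contig annotated as the UV-B receptor UVR8 (sp_v3.0_unigene63193) were listed but had no row. Of 5 listed regulators 2 had a row. Both had higher values in both Leiria plants, as in 25.0% of all contigs, the direction of PAP2 and not that of HY5. A B-box contig annotated as BBX24 (sp_v3.0_unigene34392), which in Arabidopsis opposes HY5, had 481 and 576 CPM in Leiria and 456 and 420 CPM in Tamrabta, with a logFC of 0.26 (adjusted p = 0.566 from limma) that became 0.13 without L7. A CONSTANS-like contig annotated as COL15 (sp_v3.0_unigene6381) had 90.6 and 99.7 CPM in Leiria and 53.2 and 65.8 CPM in Tamrabta, with a logFC of 0.68 (adjusted p = 0.235 from limma).

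Chalcone synthase, the entry enzyme of the flavonoid pathway and a known HY5 target in Arabidopsis, had the direction of HY5 in the 1 contig of 4 listed that had a row. This contig, sp_v3.0_unigene30752, had 25.5 and 14.0 CPM in Leiria against 101 and 104 CPM in Tamrabta. Its logFC was -2.41 with a standard error of 0.32 in limma. The adjusted p was 0.104 from limma and 0.135 from the quasi-likelihood test, so neither called it. It was 2.34e-07 from the exact test of edgeR and 5.64e-08 from DESeq2. L6, with more ELIP than L7, also had more of this transcript. In Tamrabta its level was alike in both plants, whereas ELIP was not.

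Among the clock and flowering genes, LHY/CCA (sp_v3.0_unigene28840) had higher values in Leiria, with a logFC of 0.99, and PRR7 (sp_v3.0_unigene2301), ELF3 (sp_v3.0_unigene6344) and the FT relative (sp_v3.0_unigene22311) had lower ones, with logFC values of -1.56, -1.09 and -2.74. Limma and the quasi-likelihood test called 0 of the 4 (0.154% and 0.0114% of all contigs). The exact test called PRR7 and the FT relative (5.99% of all contigs), and DESeq2 called PRR7 and ELF3 (6.19%). LHY/CCA had an adjusted p of 0.0423 in the exact test and 0.000531 in DESeq2. It was not called because its logFC there, 0.99 and 0.98, lay just under 1. The adjusted p of ELF3 was 0.0806 in the exact test and 0.000619 in DESeq2, and that of the FT relative was 0.00847 in the exact test and 0.0513 in DESeq2. Without L6 the logFC of PRR7 was -0.92. The FT relative had only 2 counts in L6, so its logFC depends on the pseudocount, and it lay between -3.53 and -1.95 with 1 library left out.

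For ELIP the relatives to compare are the chlorophyll-binding antenna proteins, of which 1 of 4 listed contigs had a row. Lhca4 (sp_v3.0_unigene18224), an antenna protein of photosystem I, had 2650 and 1848 CPM in Leiria against 1427 and 1103 CPM in Tamrabta. Its logFC in limma, 0.82 with an error of 0.28 (adjusted p = 0.307), had the sign opposite to that of ELIP, although L6 and T3 were again the higher plants of their pairs. The test of a difference between these genes was not run. Lhca4 is also the only marker of green tissue in the lists. Its values in the 4 libraries do not tell needles from other green tissue, and the organ was not checked otherwise.

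The auxin genes had the direction of PAP2 in 6 of 7 contigs, all 7 of which had a row. In these 6, both Leiria values were above both Tamrabta values, as in 25.0% of all contigs. Aux/IAA proteins bind auxin response factors and block them until the receptor TIR1 marks the Aux/IAA protein for degradation. The contig sp_v3.0_unigene10607, annotated like PAP2 with AT4G29080, had 80.4 and 97.1 CPM in Leiria against 68.5 and 32.5 CPM in Tamrabta. Limma gave it a logFC of 0.90 with an error of 0.40 and an adjusted p of 0.397, and without T6 the logFC was 0.37. As with PAP2, T6 was the lowest plant and L7 the highest. If the 2 contigs are copies or alleles of 1 gene their reads could have been shared by the counting, which was not tested.

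The other contigs described as Aux/IAA or auxin-induced proteins also had higher values in both Leiria plants. Their logFC values were 0.75 for sp_v3.0_unigene9183 (AT3G04730, IAA16), 0.99 for sp_v3.0_unigene94739 (the same Arabidopsis gene), 0.33 for sp_v3.0_unigene29328 (AT5G65670, IAA9) and 1.02 for sp_v3.0_unigene127912 (described as Aux/IAA family but linked to AT1G30330, an auxin response factor, ARF6). Without L6 the value of sp_v3.0_unigene94739 was 0.51, and without T6 that of sp_v3.0_unigene29328 was 0.20. An auxin response factor (sp_v3.0_unigene12324) had a logFC of 0.32. The TIR1 receptor (sp_v3.0_unigene4210) had overlapping values, 63.7 and 69.1 CPM in Leiria and 56.2 and 92.9 CPM in Tamrabta, and its logFC of -0.12 became -0.48 without T3 and 0.24 without T6. The median logFC of the 7 auxin contigs was 0.75. Limma and the exact test called 0 of them, although in limma 2 were under an unadjusted p of 0.05 (14.7% of all contigs), and DESeq2 called 1 (6.19% of all contigs), sp_v3.0_unigene127912.

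**Figure D4:**
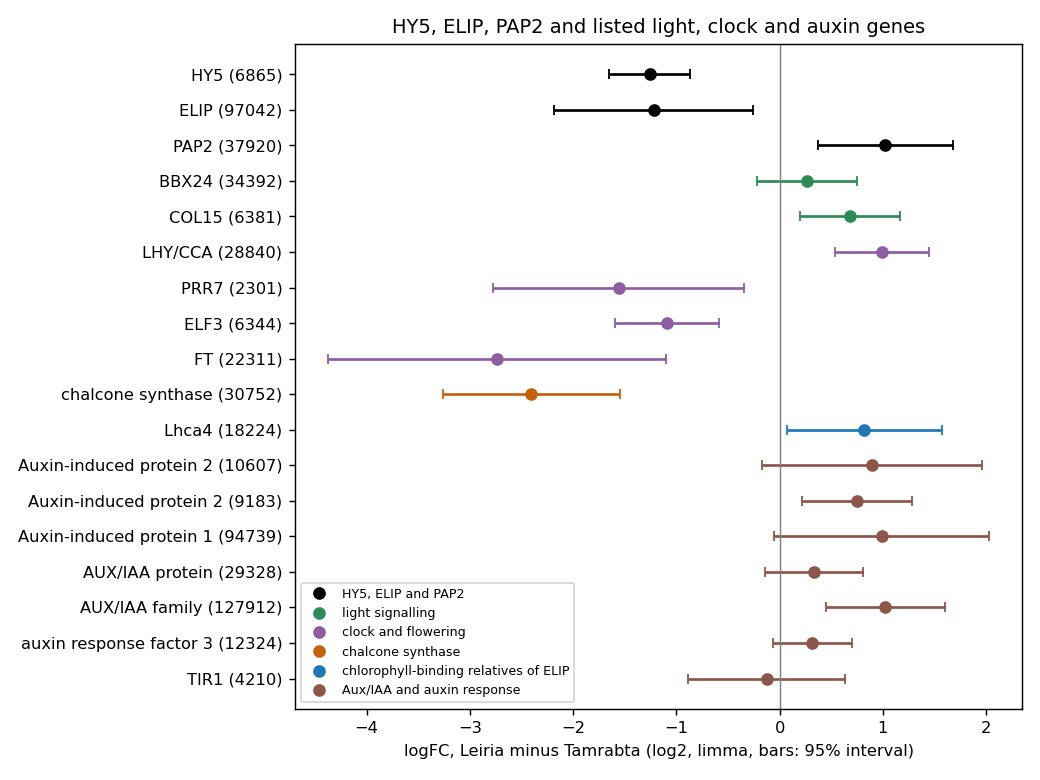
logFC from limma with 95% intervals, Leiria minus Tamrabta (x axis, log2), for HY5, ELIP, PAP2 and the 15 listed genes with a row (y axis, with the unigene number). HY5 (-1.26) and ELIP (-1.22) lie on the side of PRR7, ELF3, the FT relative, chalcone synthase and TIR1 (-0.12). PAP2 (1.02) lies on the side of LHY/CCA, Lhca4, the light signalling contigs BBX24 (0.26) and COL15 (0.68), and 6 of the 7 auxin contigs.

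The contigs with the most similar profile were found by the distance between log2(CPM + 0.5) values over the 4 libraries, each profile centred on its own mean, among 16361 other contigs with a mean of at least 1 CPM. With only 4 libraries, near matches are easy to find. For HY5 they were sp_v3.0_unigene46585, sp_v3.0_unigene3496 and sp_v3.0_unigene15991, at distances of 0.0313, 0.0335 and 0.0516. All 3 had much lower CPM than HY5 in every library, and none was annotated in the sources read. Their match to HY5 depends on the pseudocount. At a pseudocount of 0.1 their logFC values were -1.70, -1.42 and -1.41, against -1.27 for HY5. In the exact test they were -1.85, -1.46 and -1.46, against -1.27 for HY5. For ELIP the nearest were sp_v3.0_unigene30102, sp_v3.0_unigene13153 and sp_v3.0_unigene206102, at the larger distances of 0.150, 0.200 and 0.258, and of these sp_v3.0_unigene13153 is annotated as a relative of TatD DNases. For PAP2 they were sp_v3.0_unigene10852, sp_v3.0_unigene18358 and sp_v3.0_unigene14056, at 0.0742, 0.0760 and 0.0799. Of these sp_v3.0_unigene10852 is annotated as a putative RNA methyltransferase and sp_v3.0_unigene14056 as a protein with an HPC2 domain. The match of sp_v3.0_unigene18358, with 0.356 to 1.59 CPM, also depends on the pseudocount. Its logFC was 1.44 at a pseudocount of 0.1 and 1.54 in the exact test, against 1.02 and 1.00 for PAP2.

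Of the listed genes, ELF3 was nearest to HY5 (distance 0.237), with 22 contigs nearer, and LHY/CCA was nearest to PAP2 (distance 0.217), with 28 nearer. ELF3 was also the listed gene nearest to ELIP, at a distance of 0.853. HY5 and ELIP were 0.722 apart, so that 3.50% of contigs were nearer to HY5 than ELIP was, and 1.16% nearer to ELIP than HY5 was. PAP2 was 2.31 from HY5 and 2.35 from ELIP, with 91.3% of contigs nearer to HY5 and 90.6% nearer to ELIP than PAP2 was. All these distances include the difference between the provenances. They therefore largely restate the signs and sizes of the logFC values and are no separate evidence of shared regulation.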

How the data were processed

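Needle RNA was sequenced at a sequencing centre as 100-base paired reads. Per the authors, reads were trimmed with SeqTrimNext, mapped with Bowtie2 as concordant pairs to contigs of SustainPineDB, and counted with a script from a bioinformatics platform. The sources used here do not give the versions of SeqTrimNext, Bowtie2 and edgeR, the use of strand, or the handling of pairs that fit several contigs. The deposited signal is CPM from edgeR after TMM scaling. Dividing by the CPM of 1 count gave whole numbers for 100% of the 70284 values (tolerance 0.01 counts), so that counts were recovered. Libraries of a provenance differed by more than sampling noise (chi-square per degree of freedom 85.1 in Leiria and 184 in Tamrabta). None of the named genes was among the 10 identifiers on more than 1 row.

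The fit was limma 3.58.1 (R 4.3.3) on log2(CPM + 0.5) values of all 4 libraries, with a prior variance that follows the mean level, no covariate, and p-values adjusted over 17571 contigs. Alternatives were edgeR 4.0.16 (exact test, also after the filter in the study's script of a CPM over 1 in at least 2 libraries, and quasi-likelihood test), DESeq2 1.42.0, a pseudocount of 0.1 or of 1, only contigs averaging 5 CPM or more, other scalings, a prior without trend, the replicate number as a block, and each library left out. Named genes are HY5, ELIP and PAP2, every listed contig with a row, and the 3 contigs nearest to each of the 3 genes. The genes and lists were chosen with earlier results of these data known. The authors' array, qPCR and metabolite values were not analysed here.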

Additional observations from a re-analysis of the deposited data

How the results depend on the processing

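HY5, ELIP and PAP2 kept the sign of their logFC under all 15 alternatives, and calls changed only in the exact test and DESeq2. HY5 was called by the exact test (logFC -1.27), DESeq2 (-1.28) and the exact test after the script filter (-1.27), ELIP by the same tests (-1.19, -1.20 and -1.20), and PAP2 by the exact test alone (1.00). Of the 3 genes, the exact test called 3, DESeq2 2 and the exact test after the filter 2, where PAP2 had a logFC of 0.9996. No limma setting called any of them, and their adjusted p there ranged over 0.0837 to 0.483 for HY5, 0.0866 to 0.695 for ELIP and 0.111 to 0.672 for PAP2. Summing each library to 1000000 moved the median logFC of all contigs to -0.127 and gave -1.41 for HY5, -1.37 for ELIP and 0.87 for PAP2. Over all contigs, limma called 27, the exact test 1053 (950 after its filter), DESeq2 1088, the quasi-likelihood test 2 (2500 at an unadjusted p under 0.05), and limma 17 with a pseudocount of 1 and 5 with a mean CPM of at least 5 (11218 contigs tested). With 1 library left out there were 0 (without L6, L7 or T3) to 32 (without T6), and such a fit has 1 plant in a provenance, assumed to vary like the other group. The replicate block called 9 contigs. Replicate numbers only name plants here, as the labels tie them to nothing shared, though same-numbered deviations correlated at 0.204 over contigs. Of the other named contigs, 1 of 24 reversed under 1 alternative, TIR1, whose logFC lay between -0.48 (without T3) and 0.24 (without T6) with 1 library left out. The cause of the differences between tests was not tested. With 2 plants for each provenance the number of plants, not depth, limits the precision.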
